A study of Mus musculus with 16 samples.

Results

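The genes described here are those of interferon beta (Ifnb1) and interferon alpha 4 (Ifna4), the chains of the type I interferon receptor (Ifnar1 and Ifnar2) and of the type II receptor (Ifngr1 and Ifngr2), and the Janus kinases bound to them (Tyk2, Jak1 and Jak2). They were chosen by gene symbol, which found 17 of 45101 probe sets, for 9 of the 18193 genes that could be tested. Dendritic cells had been grown from the bone marrow of C57BL/6 mice with GM-CSF, the growth factor that drives such cultures, at 15 ng/ml and were harvested on day 8. They were then given Lactobacillus acidophilus NCFM, a gut bacterium sold as a probiotic, at 10 µg/ml for 4 h (n = 3 arrays), 10 h (n = 3) or 18 h (n = 3), and control cells without bacteria were taken at 4 h (n = 3), 10 h (n = 2) and 18 h (n = 2). All groups were in medium with GM-CSF at 10 ng/ml during this time. The 16 arrays, each with a single channel, gave messenger RNA as an intensity per probe set.

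Interferon beta is secreted within hours by cells that sense microbes, when interferon regulatory factors and NF-kB act together at its promoter. It binds Ifnar1 and Ifnar2, whose cytoplasmic tails carry Tyk2 and Jak1, and the kinases switch on STAT factors that turn on antiviral genes, in dendritic cells also in the cell that made it. Interferon gamma, made mainly by T and NK cells, uses a separate receptor, in which Ifngr1 binds the ligand and Jak1, and Ifngr2 brings in Jak2.

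Promoter windows of 300 bases, from 250 bases before to 50 after the start of the gene, were found in RefSeq (GRCm38.p6) for all 9 genes. Ifnb1, Ifna4 and Jak1 lie on chromosome 4, Ifnar1, Ifnar2 and Ifngr2 on 16, Tyk2 on 9, Ifngr1 on 10 and Jak2 on 19. Of the 3 motifs searched, AANNGAAA is the core bound by interferon regulatory factors, GGGAANTTCC is an NF-kB element and TTCNNNGAA is the core of the gamma-activated site bound by STAT dimers. Both strands were read, and matches of different motifs did not overlap. The stretch before the start is shown for both ligands, because Ifnb1 and Ifna4 differed in their values on the arrays. The first 100 bases of the window are shown for Ifnar2, a receptor chain that lay higher with NCFM at 10 and 18 h. Capitals mark every match, written 5′ to 3′ on the strand of the gene. They lie at chr4:88522795-88523044 on the minus strand (Ifnb1), chr4:88841566-88841815 on the plus strand (Ifna4) and chr16:91372533-91372632 on the plus strand (Ifnar2).
Ifnb1: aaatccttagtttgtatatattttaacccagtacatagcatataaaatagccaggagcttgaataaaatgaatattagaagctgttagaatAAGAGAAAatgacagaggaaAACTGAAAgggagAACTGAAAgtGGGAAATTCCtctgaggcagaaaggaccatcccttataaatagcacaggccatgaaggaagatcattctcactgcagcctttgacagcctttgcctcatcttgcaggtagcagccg
Ifna4: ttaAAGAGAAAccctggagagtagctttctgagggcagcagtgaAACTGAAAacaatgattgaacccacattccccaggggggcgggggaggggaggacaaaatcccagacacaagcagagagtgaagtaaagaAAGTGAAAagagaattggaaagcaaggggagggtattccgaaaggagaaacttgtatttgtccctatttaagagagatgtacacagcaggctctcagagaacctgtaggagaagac
Ifnar2: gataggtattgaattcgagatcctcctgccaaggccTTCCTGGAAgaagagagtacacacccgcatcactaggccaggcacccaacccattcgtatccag

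The window of Ifnb1 held 3 interferon regulatory factor cores, at bases 92 to 99, 112 to 119 and 125 to 132, and next to them an NF-kB element at bases 135 to 144. The Ifna4 window also held 3 such cores, spread over bases 4 to 142, and no match to the NF-kB element. Of 32851 RefSeq promoter windows of this length 23.9% held the interferon regulatory factor core, 1.12% at least 3 of them, and 0.341% the NF-kB element. Only 36 windows, 0.110%, had both. The windows of Ifnar1 and Ifnar2 had 1 gamma-activated site core each, found in 8.30% of all windows, and those of Ifngr1, Ifngr2, Tyk2, Jak1 and Jak2 had no match. A match is a description of these letters and no evidence of binding.

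Array medians were 162 to 167 intensity units, and precision is limited by how many arrays there are. None of the 8 measured dendritic markers of 9 lay at or under the array median on all arrays, and none of the 7 macrophage or the 7 neutrophil markers did either, so these markers do not set the dendritic label apart from myeloid cells of other kinds. Itgax, the CD11c chain, lay between 1654 and 5478 in NCFM cells and between 2830 and 5073 in control cells. At 4, 10 and 18 h 0, 2 and 3 of the dendritic markers were called lower (0%, 25% and 37.5%), where 13.1%, 16.5% and 16.3% of all genes were. Of the macrophage markers 1, 2 and 1 were called higher (14.3%, 28.6% and 14.3%), where 5.27%, 8.21% and 7.4% of all genes were. In all 6 groups the array numbered 1 stood apart from its partners, with less Xist (mean difference -4.32, log2) and more of the Y-linked gene Eif2s3y (3.89). Number 1 arrays were 1 of 3 in the NCFM groups but 1 of 2 in the 10 and 18 h controls. Arrays of the same number deviated alike, so values with the array number as a block in the fit are also given.

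In NCFM cells Ifnb1 rose early and steeply and Ifngr1 fell at all 3 times. Jak2 was called higher at 4 and 10 h, and Ifnar2 and Ifngr2 at 18 h. Changes are log2 of the NCFM to control ratio ± SE from a limma fit of all 18193 genes, and calls needed a Benjamini-Hochberg adjusted p under 0.05. Another probe set of Jak2 was called at all 3 times, and another of Ifnar2 and of Ifngr2 at 10 h and not at 18 h. For Jak2, Ifnar2 and Ifngr2 no difference of the effect between times was called without the block. Of the 9 genes 3 were called at 4 h, 2 higher and 1 lower, where 5.27% of all genes were higher and 13.1% lower. At 10 h 3 were higher and 1 lower, against 8.21% and 16.5% of all genes. At 18 h 3 were higher and 1 lower, against 7.4% and 16.3%. NCFM and control arrays did not overlap for 3 of the 9 genes at 4 h (36.5% of all genes), 7 at 10 h (52.1%) and 9 at 18 h (47.2%), so the share at 4 h was near that of all genes. The median change of the 9 genes was 0.13, 0.36 and 0.50 at 4, 10 and 18 h, beside medians of all genes of -0.01, 0.01 and 0.00. With the array number as a block 4, 6 and 6 of the 9 were called, while 26.8%, 31.1% and 30.5% of all genes were.

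**Figure D1:**
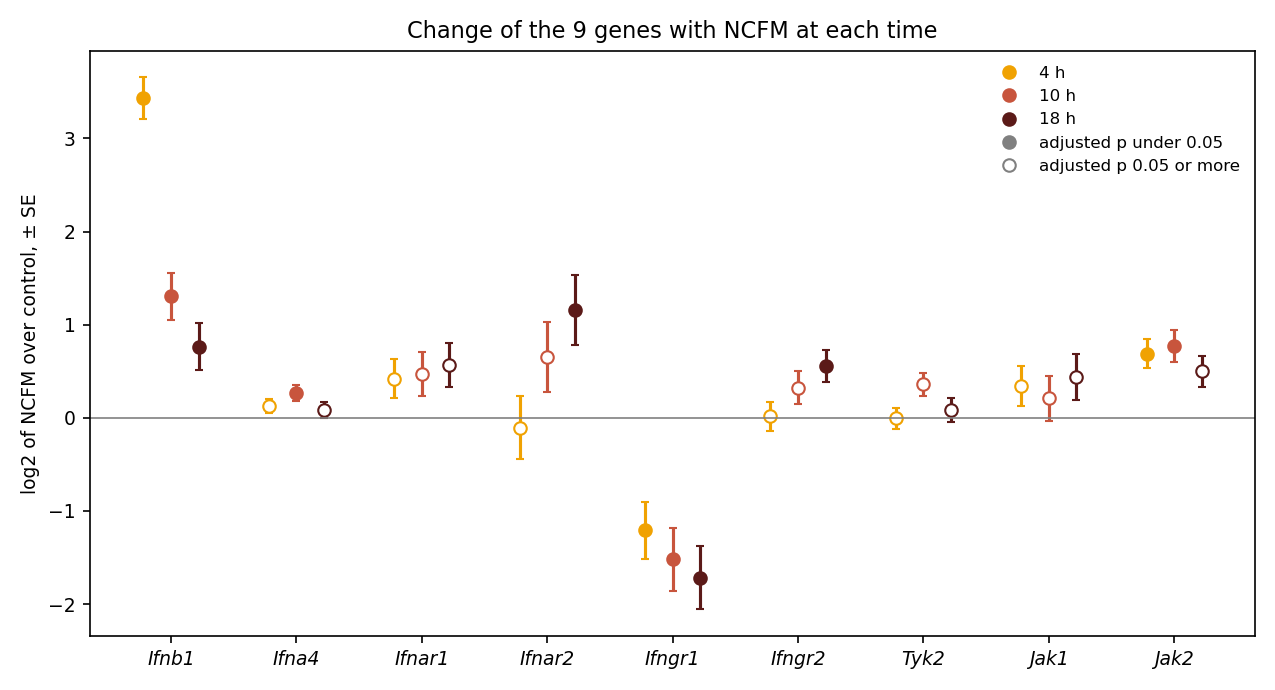
Log2 of NCFM over control with its SE (vertical axis) for the 9 genes (horizontal axis) at 4, 10 and 18 h, from the limma fit without a block; filled points passed an adjusted p of 0.05. Ifnb1 starts at 3.43 and declines, Ifngr1 lies between -1.72 and -1.21, and the Ifnar2 and Ifngr2 probe sets shown pass only at 18 h.

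Ifnb1 (probe set 1422305_at), the gene of interferon beta, had intensities of 1396, 1690 and 1484 in NCFM cells at 4 h, against 142, 147 and 134 in control cells. At 10 h it had 567, 249 and 308 in NCFM cells and 137 and 148 in control cells. At 18 h it had 314, 251 and 241 in NCFM cells and 154 and 160 in control cells. NCFM arrays thus lay above all control arrays at every time, and 1 array at 10 h, number 1, lay well above its partners. The change was 3.43 ± 0.23 at 4 h, a 10.8-fold rise (limma, n = 3 against 3, adjusted p = 2.16e-06). It was 1.30 ± 0.25 or 2.47-fold at 10 h (n = 3 against 2, adjusted p = 0.00274) and 0.77 ± 0.25 or 1.70-fold at 18 h (n = 3 against 2, adjusted p = 0.0452). Control values lay at percentiles 39.1 to 49.3 of their arrays, under the array median. The folds therefore depend on the background: with the 5th percentile of each array subtracted the log2 changes were 4.27, 1.88 and 1.13. The 10 h call was lost when only the groups compared were fitted (adjusted p = 0.0637). The 18 h call was lost when any single array of its groups was left out, with an adjusted p of up to 0.143 over the alternatives.

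**Figure D2:**
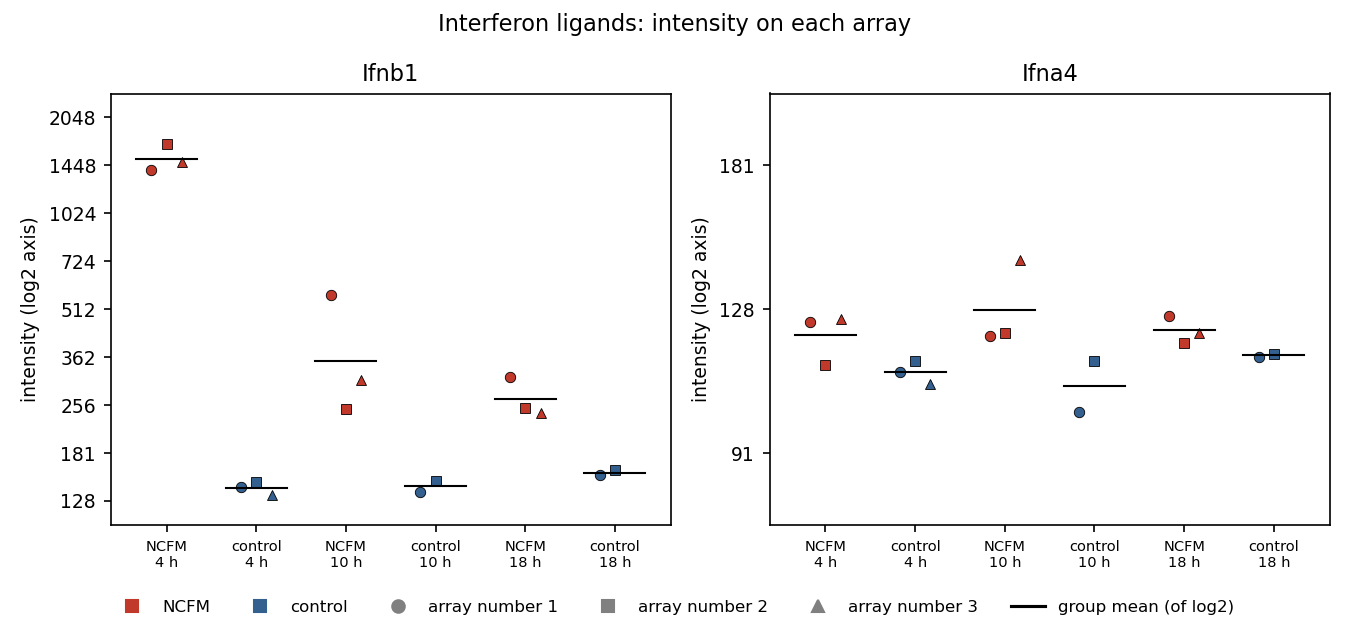
Intensity (vertical axes, log2 scale) of Ifnb1 and Ifna4 on each array, with NCFM left of control at each time, the array number as the symbol and the mean of the log2 values as a line. For Ifnb1 the 4 h NCFM arrays lie at 1396 to 1690 and all control arrays at 134 to 160, while Ifna4 stays between 100 and 144 everywhere.

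The decline of the Ifnb1 effect was tested directly. Its change was lower at 10 h than at 4 h (difference -2.13 ± 0.34, limma, adjusted p = 0.0243), the most negative of all genes called in that comparison. From 4 to 18 h the difference was -2.66 ± 0.34 (limma, adjusted p = 0.00221). These were the only called differences among the 9 genes without the block, where 0.506% and 3.4% of all genes were called. No member was called between 10 and 18 h, nor had an unadjusted p under 0.05 in limma, where 1358 of all genes did and 0.0055% were called. The Ifnb1 difference there was -0.54 ± 0.36 (adjusted p = 0.827). The 4 to 10 h call was lost without NCFM 4 h replicate 2, NCFM 10 h replicate 3, control 4 h replicate 2 or 3, or control 10 h replicate 1 (adjusted p up to 0.150 over the alternatives), while the 4 to 18 h call held in all 24 alternatives. Within NCFM cells, a comparison that shares their 4 h arrays, Ifnb1 was 4.32-fold lower at 10 h than at 4 h (-2.11 ± 0.23, adjusted p = 3.66e-04), and the groups did not overlap. The 10 and 18 h NCFM groups overlapped, and among the 6 group means the order was NCFM 4 h, 10 h and 18 h, then control 18 h, 10 h and 4 h, the 10 and 4 h controls overlapping as well.

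The 5 genes most like Ifnb1 over the 16 arrays, by Pearson's r of log2 intensity among all genes tested, were Nfkbiz (0.97), Edn1 (0.96), Il23a (0.96), Csf1 (0.95) and Clcf1 (0.95). These arrays share groups, so r is a description, here and for the other members. Genes picked by r over these arrays tend to change alike, so their calls are no separate evidence. Nfkbiz, an IkB family protein, changed by 3.89 ± 0.31, 2.08 ± 0.35 and 1.13 ± 0.35 at 4, 10 and 18 h, and all 3 were called. Edn1, the vasoconstrictor endothelin 1, changed by 2.68 ± 0.17 and 0.74 ± 0.19 at 4 and 10 h, both called, and by 0.29 ± 0.19 at 18 h (adjusted p = 0.307). Il23a, a subunit of interleukin 23, was called at 4 h only (1.76 ± 0.22). The other two are growth factors or cytokines: Csf1 was called at 4 h (1.54 ± 0.12) and 18 h (0.49 ± 0.13), and Clcf1 at 4 h (1.31 ± 0.10), 10 h (0.37 ± 0.12) and 18 h (0.37 ± 0.12).

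Genes turned on by type I interferon stayed high while Ifnb1 declined. Of a list of 30, chosen as textbook targets but with earlier results of these data known, 28 were measured. At 4, 10 and 18 h 28, 28 and 27 of them rose, where 5.27%, 8.21% and 7.4% of all genes did. Their median changes were 2.68, 2.54 and 2.25. Ifit1, an RNA-binding antiviral protein, had 5.39, 4.73 and 4.71 and the GTPase Mx1 2.65, 2.53 and 1.79. Isg20, an RNA exonuclease, had 3.16, 4.73 and 4.80, and the membrane tether Bst2 0.86, 2.19 and 2.38. Adar, an RNA-editing enzyme, was the target not called at 18 h (-0.05, adjusted p = 0.902). In the test of the 4 to 18 h difference, 2 targets were called higher and 1 lower, with a median of -0.40, where 3.4% of all genes were called. With the array number as a block 2 were higher and 6 lower, where 9.15% of all genes were called.

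**Figure D3:**
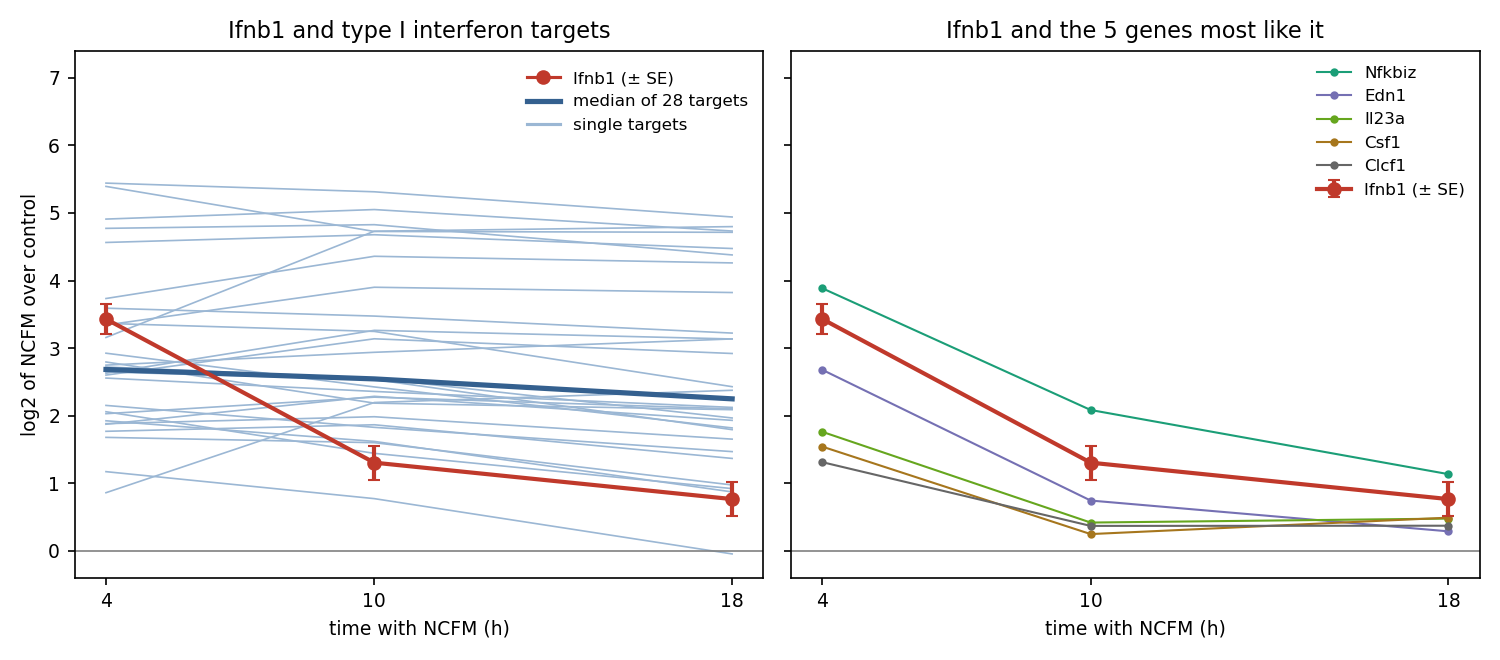
Log2 of NCFM over control (vertical axis) against time in hours, with Ifnb1 and its SE in red. On the left are 28 type I interferon targets with their median (2.68, 2.54 and 2.25), and on the right the 5 genes most like Ifnb1, of which Nfkbiz starts at 3.89.

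Ifna4 stayed dim on every array. This interferon alpha subtype (1422408_at), induced early in mouse cells, had intensities of 124, 112 and 125 in NCFM cells at 4 h and 110, 113 and 107 in control cells. At 10 h it had 120, 121 and 144 in NCFM cells, against 100 and 113 in control cells, and at 18 h 126, 118 and 121 in NCFM cells, against 114 and 115 in control cells. All lay at percentiles 22.6 to 42.9 of their arrays, and the groups overlapped at 4 h only. The change was 0.27 ± 0.08 at 10 h (limma, adjusted p = 0.0366), a call lost under the array block (0.24, adjusted p = 0.0554) and when NCFM 10 h replicate 3 or replicate 1 of the 10 h control was left out. With the 5th percentile subtracted the 10 h change was 0.60. At 4 h it was 0.13 ± 0.08 (adjusted p = 0.278) and at 18 h 0.09 ± 0.08 (adjusted p = 0.502).

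Of 21 interferon ligand genes listed 10 were measured, and apart from Ifnb1 and Ifna4 none was called at any time. The limma changes of those 8 lay between -0.16 and 0.31, the highest being Ifna1 at 10 h (adjusted p = 0.0530). Ifng, the gene of interferon gamma, lay at 69 to 86 on all 16 arrays, at percentiles 6.40 to 13.7, among the dimmest probe sets. Close subtypes of interferon alpha have similar sequences, so a probe set may read more than its own gene. Markers of cell types known as sources of interferon were mixed. Of 7 plasmacytoid dendritic cell markers 2 lay at or under the array median on all arrays, and Siglech, a defining one, lay at 131 to 147 in NCFM cells and 118 to 138 in control cells. Tcf4, another of them, was called higher at 4 h (1.07) and 10 h (1.25), Spib lower at 10 and 18 h (-1.03 and -1.08) and Ccr9 lower at 18 h (-0.63). The summed level of the 7 was 2539 to 2772 in NCFM cells and 2231 to 2309 in control cells at 4 h, 2481 to 2715 and 2233 to 2260 at 10 h, and 1905 to 2122 and 2074 to 2486 at 18 h. A sum of intensities is weighted to bright genes. Tcf4 alone lay at 1066 to 1435 in NCFM cells and 523 to 620 in control cells at 4 h, while Spib lay at 371 to 546 and 622 to 724. The higher sums thus do not show a rise of the markers in common. Of 5 measured NK cell markers 3 lay at or under the array median on all arrays. Ncr1, a defining one, lay at 144 to 161 in NCFM cells and 137 to 165 in control cells, while Klrk1 was called higher at 10 h (1.05) and Prf1 at 18 h (0.19). Their summed level was 1194 to 1509 in NCFM cells and 895 to 1183 in control cells at 4 h, 1273 to 1491 and 884 to 1011 at 10 h, and 1097 to 1284 and 887 to 1118 at 18 h. Most of the difference between these sums lay in Klrk1. It had 623 to 933 in NCFM cells and 337 to 651 in control cells at 4 h, and 699 to 930 and 343 to 473 at 10 h. The part of these cells in the ligand values was not tested.

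Ifnar1 (1449026_at), the chain that carries Tyk2, lay somewhat higher in NCFM cells throughout. Its intensities were 793, 1069 and 1366 in NCFM cells at 4 h, against 677, 761 and 941 in control cells. At 10 h they were 862, 981 and 1240 in NCFM cells, against 665 and 812 in control cells, and at 18 h 921, 1045 and 1320, against 662 and 807. The groups overlapped at 4 h only, and the number 1 array was lowest in all 6 groups (mean difference -0.37). The changes were 0.42 ± 0.21, 0.47 ± 0.24 and 0.57 ± 0.24, with no call (adjusted p = 0.201, 0.172 and 0.106). With the array number as a block all 3 were called, at 0.42 ± 0.06 (limma, adjusted p = 5.82e-04), 0.32 ± 0.07 (0.00561) and 0.42 ± 0.07 (0.00107). All 7 same-number pairs were higher in NCFM cells, by 0.23 to 0.54. A second, dimmer probe set had -0.05, 0.10 and 0.48, none called.

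Ifnar2 (1451462_a_at), the chain that carries Jak1, did not differ at 4 h and rose with time. Its intensities were 1150, 2401 and 2139 in NCFM cells at 4 h and 1516, 2156 and 2246 in control cells. At 10 h they were 1722, 3087 and 3355 in NCFM cells, against 1380 and 2003 in control cells, and at 18 h 3154, 5575 and 5211, against 1782 and 2283. The groups overlapped at 4 and 10 h and were apart at 18 h, and number 1 was lowest in all 6 groups (mean difference -0.68). By group mean the order was NCFM 18 h, NCFM 10 h, control 18 h, control 4 h, NCFM 4 h and control 10 h, and every neighbour in it overlapped the next. The change at 18 h was 1.16 ± 0.37, or 2.24-fold (limma, adjusted p = 0.0414), and 1.03 ± 0.13 with the block (adjusted p = 2.01e-04). Without the block this call was lost when NCFM 18 h replicate 2 or 3 or either control array was left out (adjusted p up to 0.181 over the alternatives). At 4 h it was -0.10 ± 0.34 (adjusted p = 0.869), and at 10 h 0.65 ± 0.37 (adjusted p = 0.229), or 0.52 ± 0.13 with the block (adjusted p = 0.0121). The effect at 18 h exceeded that at 4 h by 1.26 ± 0.50 (adjusted p = 0.232), a difference called only with the block (1.14 ± 0.18, adjusted p = 0.00353) and on subsets of the arrays.

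The other two Ifnar2 probe sets also lay higher at 10 and 18 h. The first had 0.12, 1.40 and 1.23, called at 10 h (limma over all probe sets, adjusted p = 0.0445), and the second 0.47, 0.77 and 0.85, with no call. The genes most like Ifnar2 over the 16 arrays were Lrpap1 (r = 0.97), Gstm1 (0.96) and Gde1 (0.96), which changed at 18 h by 1.08 ± 0.31, 1.79 ± 0.45 and 1.74 ± 0.36, all called. They were picked by r on these same arrays, so their calls are no separate evidence. On chromosome 16, RefSeq places Ifnar2, Il10rb, Ifnar1 and Ifngr2 in that order among the protein-coding genes. Il10rb, a chain of the interleukin 10 and lambda interferon receptors, had 0.19 ± 0.30, 0.52 ± 0.34 and -0.08 ± 0.34, with no call.

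Ifngr1 (1448167_at), the ligand-binding chain of the interferon gamma receptor, fell at all 3 times. Its intensities were 727, 952 and 1224 in NCFM cells at 4 h, against 1496, 2342 and 2992 in control cells. At 10 h they were 618, 638 and 807 in NCFM cells, against 1633 and 2344 in control cells, and at 18 h 672, 806 and 915, against 1838 and 3681. No NCFM array reached any control array, and number 1 was lowest in all 6 groups (mean difference -0.58). The changes were -1.21 ± 0.30 or 2.31-fold lower at 4 h (limma, n = 3 against 3, adjusted p = 0.0152), -1.52 ± 0.34 or 2.87-fold lower at 10 h (n = 3 against 2, adjusted p = 0.00609) and -1.72 ± 0.34 or 3.29-fold lower at 18 h (n = 3 against 2, adjusted p = 0.00306). Leaving out NCFM 4 h replicate 1, or replicate 2 or 3 of the 4 h control, ended the 4 h call (adjusted p up to 0.0706 over the alternatives). Leaving out replicate 2 of the 10 h control ended the 10 h call (adjusted p = 0.0568). The 18 h call held in all 18 alternatives. With the array number as a block the changes were -1.21 ± 0.15, -1.68 ± 0.17 and -1.88 ± 0.17, all called. All 7 same-number pairs were lower in NCFM cells, by 1.04 to 2.19 on the log2 scale in size.

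Markers of myeloid cells were read beside the falls of Ifngr1. Of 7 measured neutrophil markers 0, 2 and 1 fell at 4, 10 and 18 h (0%, 28.6% and 14.3%), where 13.1%, 16.5% and 16.3% of all genes did. The 2 at 10 h were Elane (-0.52) and Ltf (-1.68), and Ltf was the 1 at 18 h (-1.61). The summed intensity of the 7 per array was 7730 to 35702 at 4 h, 12913 to 34015 at 10 h and 5556 to 16953 at 18 h in NCFM cells. In control cells it was 28390 to 40892, 39041 to 47401 and 22751 to 25519, so the groups overlapped at 4 h and were apart at 10 and 18 h. Of 8 dendritic markers 2 and 3 fell at 10 and 18 h, among them Clec10a (-2.53 and -2.44). No dendritic marker was called higher, but at 10 h Ccr7 lay at 6676 to 9979 in NCFM cells and 3731 to 5516 in control cells. Zbtb46 (506 to 955 and 306 to 461) and Flt3 (352 to 421 and 324 to 337) also lay higher there without overlap. Of 7 macrophage markers 1, 2 and 1 rose at 4, 10 and 18 h, where 5.27%, 8.21% and 7.4% of all genes did. Fcgr1 rose at all 3 times (1.06, 1.57 and 1.40). No macrophage marker was called lower, but at 18 h C1qa lay at 796 to 3502 in NCFM cells and 4856 to 8822 in control cells. C1qb and Csf1r also lay lower there without overlap. The summed macrophage level at 18 h was 26579 to 47153 in NCFM cells and 41052 to 59342 in control cells. The part of these markers in the result was not tested, and in these bulk samples fewer cells of a type and less RNA per cell cannot be told apart. The genes most like Ifngr1 were Gm16845, Slc43a2 and Cln6 (r = 0.98 each). Slc43a2, an amino acid transporter, fell at all 3 times, by 1.72 to 1.88 on the log2 scale in size.

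Ifngr2 (1423557_at), the partner chain, moved the other way. Its intensities were 1254, 1656 and 1900 in NCFM cells at 4 h, against 1401, 1516 and 1804 in control cells. At 10 h they were 2086, 2016 and 2716 in NCFM cells, against 1780 and 1824 in control cells, and at 18 h 2327, 2249 and 1963, against 1602 and 1365. The groups overlapped at 4 h and were apart at 10 and 18 h. The change was 0.01 ± 0.16 at 4 h (limma, adjusted p = 0.965), 0.32 ± 0.18 at 10 h (0.207) and 0.56 ± 0.18, or 1.47-fold, at 18 h (adjusted p = 0.0381). The 18 h call was lost without NCFM 18 h replicate 1 or 2 or either control array (adjusted p up to 0.234 over the alternatives). A second probe set was called at 10 h (0.38 ± 0.08, adjusted p = 0.00669) and not at 18 h (0.24 ± 0.08, adjusted p = 0.0688). The effect at 18 h minus that at 10 h was called for neither probe set (0.23 ± 0.25, adjusted p = 0.913, and -0.15 ± 0.12, adjusted p = 0.860).

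**Figure D4:**
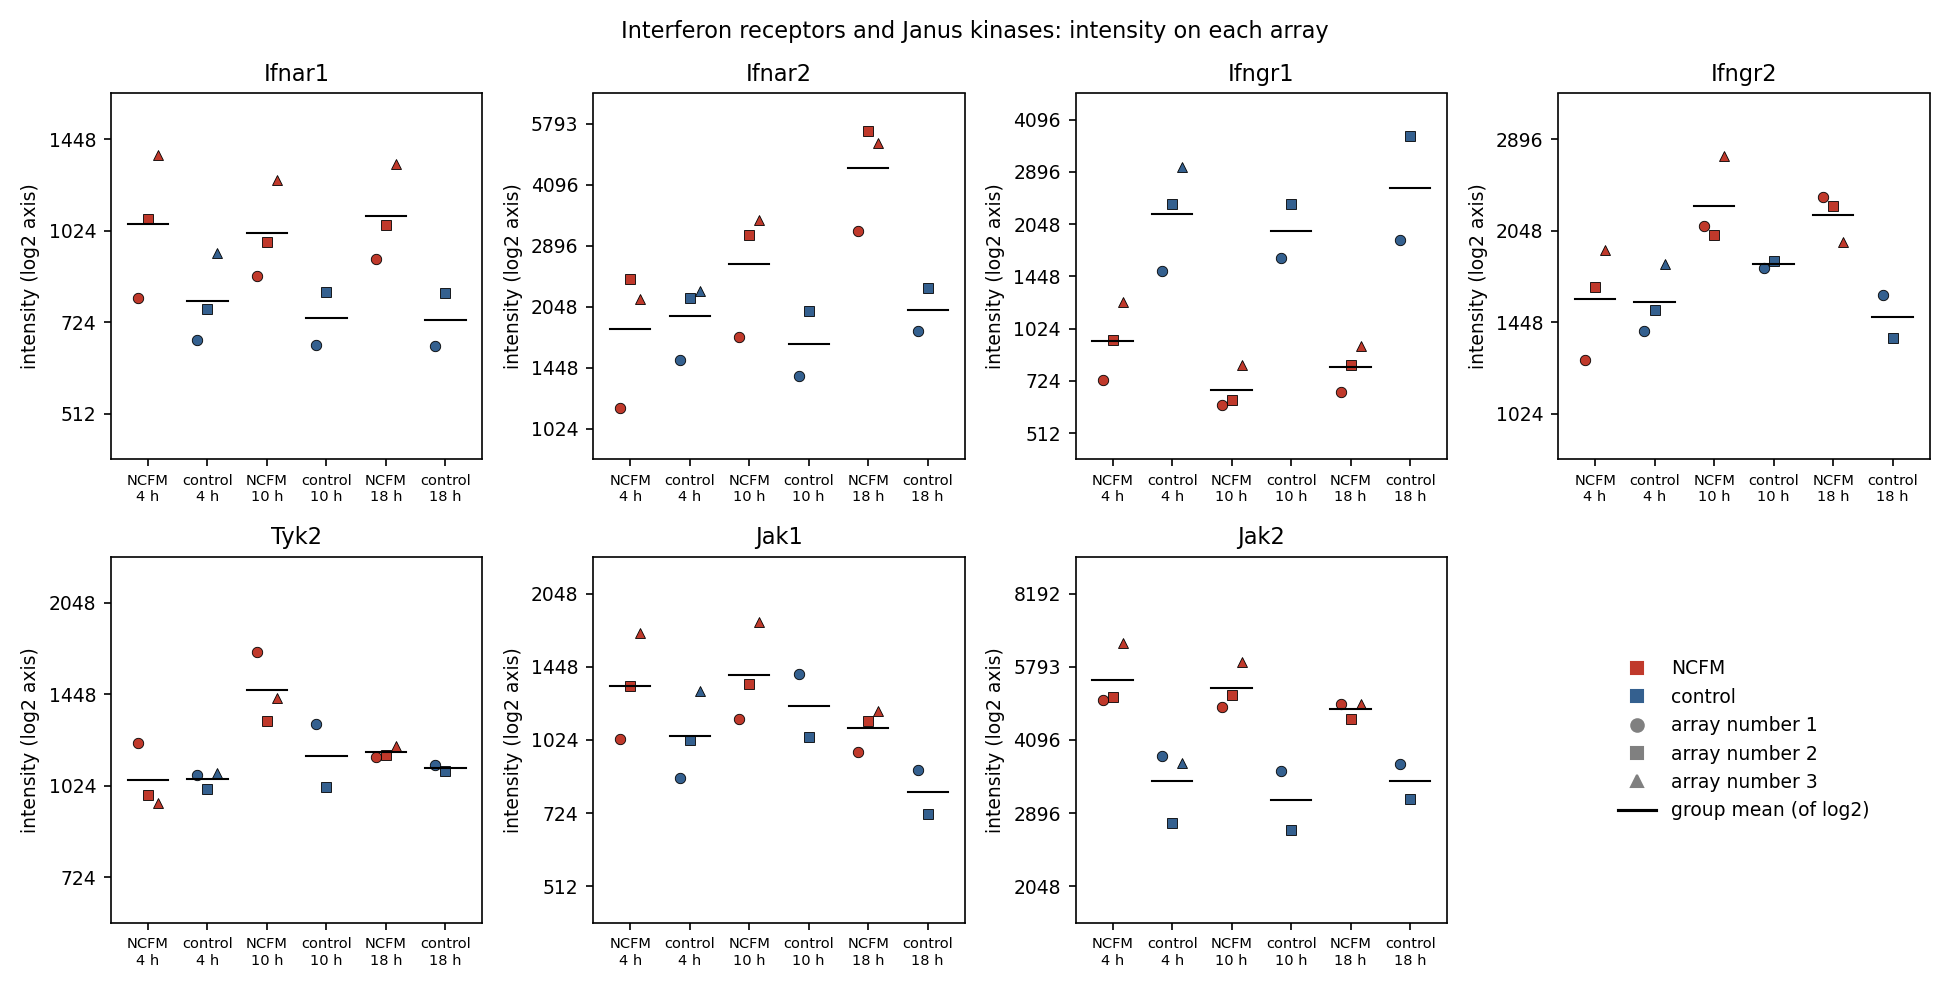
Intensity (vertical axes, log2 scale) of the receptor chains and Janus kinases on each array, with NCFM left of control at each time, the array number as the symbol and the mean of the log2 values as a line. Ifngr1 in NCFM cells lies at 618 to 1224, under every control array (1496 to 3681), and Ifnar2 in NCFM cells reaches 3154 to 5575 at 18 h.

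Among the kinases Jak2 (1421066_at), used by Ifngr2 and by the GM-CSF receptor, rose. Its intensities were 4944, 5012 and 6478 in NCFM cells at 4 h, against 3787, 2757 and 3665 in control cells. At 10 h they were 4784, 5070 and 5920 in NCFM cells, against 3540 and 2669 in control cells, and at 18 h 4862, 4526 and 4865, against 3657 and 3095. The groups did not overlap at any time. The changes were 0.69 ± 0.15 at 4 h (1.61-fold, limma, adjusted p = 0.00767, called in all 19 alternatives), 0.77 ± 0.17 at 10 h (1.70-fold, adjusted p = 0.00576) and 0.50 ± 0.17 at 18 h (adjusted p = 0.0512). Leaving out replicate 2 of the 10 h control ended the 10 h call (adjusted p = 0.0655), and the 18 h change was called with the array block (0.42 ± 0.12, adjusted p = 0.0230). A second probe set was called at all 3 times, at 0.91, 1.00 and 0.87 (adjusted p = 0.0184, 0.0146 and 0.0309). Mdm2, the p53 ubiquitin ligase, was most like Jak2 (r = 0.94), and changed by 1.40, 1.34 and 1.41.

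Tyk2 and Jak1, the kinases of the type I receptor, were not called against control. Tyk2 (1417306_at) had 1204, 988 and 957 in NCFM cells at 4 h, against 1065, 1010 and 1074 in control cells. At 10 h it had 1702, 1308 and 1426 in NCFM cells, against 1291 and 1019 in control cells, and at 18 h 1142, 1150 and 1192, against 1108 and 1084. The groups overlapped at 4 h and were apart by narrow margins at 10 and 18 h. The changes were -0.01 ± 0.11, 0.36 ± 0.12 and 0.08 ± 0.12 (limma, adjusted p = 0.975, 0.0548 and 0.677), and 0.37 ± 0.10 at 10 h with the block (adjusted p = 0.0162). Within NCFM cells this Tyk2 probe set was 1.41-fold higher at 10 h than at 4 h (0.49 ± 0.11, adjusted p = 0.0224), a call lost without NCFM 4 h replicate 2 or 3 or NCFM 10 h replicate 1 or 3 (adjusted p up to 0.115 over the alternatives). A second, dimmer probe set did not show this rise (0.003 ± 0.056, limma over all probe sets, adjusted p = 0.991). Against control it had 0.09, 0.13 and 0.17, none called.

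Jak1 (1433805_at) lay at 1028, 1319 and 1701 in NCFM cells at 4 h and 856, 1024 and 1291 in control cells. At 10 h it lay at 1130, 1335 and 1786 in NCFM cells and 1396 and 1040 in control cells, and at 18 h at 966, 1118 and 1175, against 889 and 721. Groups overlapped at 4 and 10 h. The changes of 0.34 ± 0.22, 0.21 ± 0.24 and 0.44 ± 0.24 were called in no alternative. The other two probe sets did not move with it, at -0.03, 0.10 and 0.11 and at -0.31, -0.08 and 0.37, none called. For the members not yet set beside other genes, the most like over the 16 arrays were Col6a4 for Ifna4 (r = 0.92), Srgap2 for Ifnar1 (0.95), Rftn2 for Ifngr2 (0.88), Htra2 for Tyk2 (0.90) and Pom121l12 for Jak1 (0.87).

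Within NCFM cells 2 of the 9 genes, Ifnb1 and Tyk2, were called between 4 and 10 h, where 6.28% of all genes were. With the array block there were 4, where 12.6% of all genes were called, with Ifnar2 (0.53 ± 0.12, limma, adjusted p = 0.0127) and Ifngr2 (0.51 ± 0.14, adjusted p = 0.0359) added. Between 10 and 18 h none was called, where 2.79% of all genes were. Tyk2 and Ifnar2 had an unadjusted p under 0.05 in limma there, and both were called with the block, where 7.23% of all genes were, Ifnar2 higher (0.79 ± 0.12, adjusted p = 0.00348) and Tyk2 lower (-0.34 ± 0.09, adjusted p = 0.0406). Other probe sets of Ifnar2 and Tyk2 did not show the changes between 10 and 18 h. Without the block those of Ifnar2 had 0.07 and -0.06 between 10 and 18 h and that of Tyk2 had 0.06, none called. Between 4 and 10 h the other probe sets of Ifnar2 had 1.03 and 0.53 without the block, not called. The second one of Ifngr2 was called there (0.42 ± 0.08, limma over all probe sets, adjusted p = 0.00797). Control cells gave no call of any gene between 4 and 10 h (0%) or between 10 and 18 h (0%). At an unadjusted p under 0.05 limma counted 0 and 1 of the 9 genes, with Jak1 (-0.59 ± 0.27) between 10 and 18 h, and 553 and 653 of all genes.

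Arrays of the same number gave 7 differences for each gene. Ifnb1, Ifnar1 and Jak2 were higher in NCFM cells in 7 of 7 and Ifngr1 lower in 7 of 7. Ifna4, Ifngr2 and Jak1 were higher in 6 of 7, and Ifnar2 and Tyk2 in 5 of 7. For Ifnar2 both lower differences were at 4 h, the lowest at -0.40. These counts are of the probe set used for each gene, and others gave different ones. Of 7 differences, the other probe sets were higher in 3 and 3 for Jak1, 4 for Ifngr2 and 5 for Ifnar1. They were higher in 6 and 7 for Ifnar2, 7 for Tyk2 and 7 for Jak2. The Ifnb1 differences were 3.30 to 3.52 at 4 h, while at 10 h number 1 gave 2.05 and number 2 gave 0.75.

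**Figure D5:**
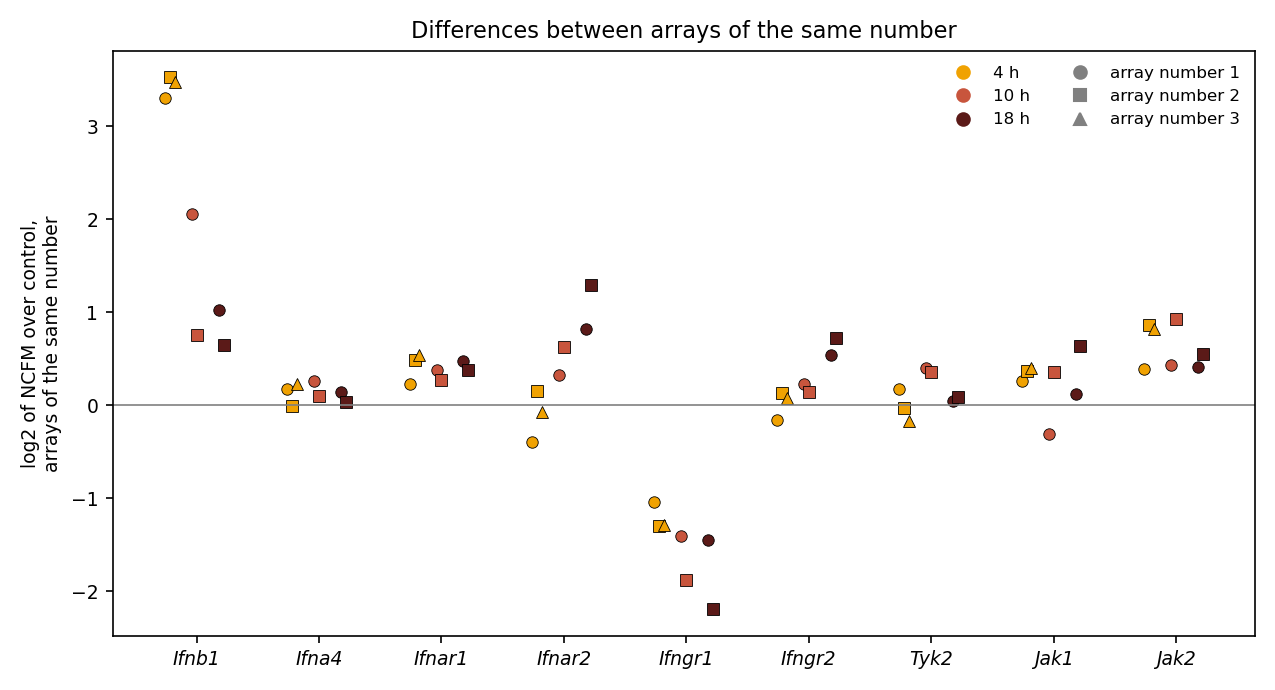
Log2 of NCFM over control for arrays of the same number (vertical axis), for each gene (horizontal axis), with time as colour and array number as symbol. All 7 points of Ifnb1, Ifnar1 and Jak2 lie above 0 and all 7 of Ifngr1 below, between -2.19 and -1.04.

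Other genes around this pathway were read from lists, whose counts stand beside shares of all genes of 5.27%, 8.21% and 7.4% called higher and 13.1%, 16.5% and 16.3% called lower at 4, 10 and 18 h. Of 10 interferon receptor and Janus kinase genes, 7 of them described above, 1 rose and 1 fell at 4 h, 1 and 2 at 10 h, and 2 and 2 at 18 h. Ifnlr1, the lambda interferon receptor chain, fell at 10 h (-0.19 ± 0.06, limma, adjusted p = 0.0399) and 18 h (-0.25 ± 0.06, adjusted p = 0.0121), and Jak3 was not called. Among 24 measured genes of sensing and Ifnb1 induction 9 rose and 3 fell at 4 h, 8 and 7 at 10 h, and 8 and 5 at 18 h (medians 0.42, 0.27 and 0.09). The rises were 37.5%, 33.3% and 33.3% of the list and the falls 12.5%, 29.2% and 20.8%, the first near the share of all genes. Irf7, which sustains interferon production, changed by 3.34, 3.90 and 3.82, and Tbk1, the kinase that activates Irf3, by 0.61, 1.00 and 0.72, all called. Irf3, the factor present before stimulation, fell (-0.46, -0.64 and -0.63), as did the receptor Tlr4 (-0.67, -0.85 and -0.72).

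Downstream of the receptors, 3, 4 and 2 of 7 measured STAT and IRF9 factors rose and none fell (medians 0.50, 0.77 and 0.63). Stat2, activated by the type I receptor, changed by 2.56, 2.08 and 1.92, all called, and its partner Irf9 by 1.11, 0.63 and 0.38, the last not called (adjusted p = 0.149). Of 13 feedback inhibitors 3 rose at 4 h, 3 at 10 h and 4 at 18 h, where 1 also fell, Ptpn11 (-0.23; medians 0.12, 0.08 and 0.31). They were Socs1 (2.75, 2.18 and 2.18), Socs3 (3.49, 2.95 and 3.40), which block Janus kinases, Usp18 (3.59, 3.47 and 3.22), which acts at Ifnar2, and at 18 h Ptpn1 (1.48 ± 0.32).

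Among 19 measured targets of interferon gamma 13, 14 and 14 rose, and 0, 0 and 2 fell (medians 1.64, 1.75 and 1.75), beside the fall of Ifngr1 and the dim Ifng. Tap1, a peptide transporter, changed by 1.96, 1.75 and 1.83, while Ciita, the class II transactivator, had -0.29, -0.41 and -0.54 and fell at 18 h. Several of them, such as Irf1 (2.14, 1.36 and 1.01) and Cxcl10 (5.29, 5.34 and 5.00), are also turned on by type I interferon. Of 14 other receptor chains that signal through Janus kinases 2 rose and 1 fell at 4 h, 2 and 4 at 10 h, and 2 and 2 at 18 h (medians -0.04, 0.09 and -0.11). The rises were 14.3% of the list at each time, where 5.27%, 8.21% and 7.4% of all genes rose. The falls were 7.14%, 28.6% and 14.3% of the list, at 4 and 18 h below the share of all genes. Among the falling genes, Il6st, the shared chain of the interleukin 6 family, fell at all times (-0.84, -1.08 and -1.08). Csf2ra, the GM-CSF receptor chain, fell at 10 and 18 h (-0.53 and -0.90).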

How the data were processed

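Single-channel arrays of dendritic cells were analysed from the table the authors deposited, with linear, whole-number intensities of 45101 probe sets, from 42 to 31573. The intensity table was already normalized between arrays, as its array medians show. Per the labels the RNA was biotin labelled. Summarization, background correction, normalization and build are not given in the sources used here.

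Intensities were taken to log2. Probe sets with several genes (932), none listed (9160) or controls (64) were left out. The probe set with the highest mean stood for a gene, which gave 18193 genes. limma 3.58.1 (R 4.3.3, lmFit and eBayes, 10 residual degrees of freedom) fitted 1 mean per group over all 16 arrays, without a block, and two-sided p-values were adjusted by Benjamini-Hochberg over all genes. The fit was also run on simulated data with independent noise on each array. Those data lack the shared deviations of same-number arrays, so the fit was not tested in that respect. Plots used matplotlib 3.10.9 under Python 3.11.15. Promoters came from RefSeq.

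Whether replicates came from separate cultures or mice is not in the labels. The p-values therefore cover the spread among these arrays alone, part of which may be technical. That spread includes the Xist and Eif2s3y differences between number 1 and its partners in all 6 groups, and the labels give no sex. Array numbers come from the labels, which do not say what they pair. All 36 same-number pairs had correlated deviations from the group means (0.19 to 0.75, median 0.42), against -0.75 to 0.73 (median -0.32) in 70 other pairs, so a block by number was fitted as an alternative. With 2 arrays a group, the deviations of the 10 and 18 h controls are mirror images and give no separate evidence.

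Named genes are the 9 members, measured members of the lists, the 5 genes most like Ifnb1 and the 3 most like each other member. Members and lists were chosen with earlier results of these data known. Alternatives were quantile, median and spike-in centring, background subtraction, a pseudocount of 16, averaging probe sets, fitting each probe set on its own, no dim genes, a variance trend, only the groups compared, the block, and each array left out. Arrays 2 and 3 alone, and arrays 1 and 2 with the block, were added after seeing the data.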

Additional observations from a re-analysis of the deposited data

Results flagged for a closer look

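The NCFM effect on Ifnb1 differed between times by a test of the difference itself. It was lower at 10 h than at 4 h (difference of log2 changes -2.13 ± 0.34 SE, limma, adjusted p = 0.0243), with group means of 1523 intensity units in NCFM cells and 141 in control cells at 4 h, and of 375 and 142.5 at 10 h. It was also lower at 18 h than at 4 h (difference -2.66 ± 0.34, adjusted p = 0.00221), with 269 in NCFM cells and 157 in control cells at 18 h. With the array number as a block the differences were -2.07 ± 0.33 (adjusted p = 0.0135) and -2.61 ± 0.33 (adjusted p = 0.00128). Of the 9 genes no other had a called difference without the block. No group holds over 3 arrays, so outlying samples were not looked for.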

How the results depend on the processing

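No member's change turned its sign among called values. With the array number as a block, which treats same-number arrays as paired, 2 of the 9 genes had a called 4 to 18 h difference, 4 differed between 10 and 4 h within NCFM cells and 2 between 18 and 10 h, where the fit without it gave 1, 2 and 0. Over all genes the block called 9.15%, 12.6% and 7.23% there, against 3.4%, 6.28% and 2.79% without it, so calls were gained in general. The block changed no call other than those given in the text. With only the groups compared, 2 genes were called at 10 h, 0 in the 4 to 10 h difference and 1 within NCFM cells at 10 against 4 h, where spike-in centring also gave 1. On arrays 2 and 3, 2 were called in the 4 to 18 h difference and 1 in NCFM cells at 18 against 10 h. On arrays 1 and 2 with the block these were 2 and 1, with 0 in the 4 to 10 h difference and 1 in NCFM cells at 10 against 4 h. Leaving out 1 array at a time gave 2 to 3 genes at 4 h, 2 to 5 at 10 h, 1 to 2 at 18 h, 0 to 1 in the 4 to 10 h difference, and 1 to 2 in NCFM cells at 10 against 4 h. Other settings ended single calls too: for Ifnb1 at 18 h median and spike-in centring and the pseudocount, for Ifnar2 at 18 h background subtraction, the mean over probe sets and only the groups compared, for Ifngr2 at 18 h arrays 2 and 3, for Ifna4 at 10 h quantile normalization and spike-in centring. Calls were gained as well: of 18 alternatives Tyk2 was called at 10 h in 8, Jak2 at 18 h in 6, Ifnar1 at 18 h in 4 and Ifngr2 at 10 h in 1 (the mean over probe sets), quantile normalization and the mean over probe sets being among those for Tyk2, Jak2 and Ifnar1. Ifngr1 alone was called at 18 h without NCFM 18 h replicate 2 or either control array. A control group cut to 1 array is assumed to vary like the others.

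Over all genes 3335, 4488 and 4320 were called at 4, 10 and 18 h, 71.2%, 66.7% and 68.8% of them lower. Quantile normalization gave 58.1%, 50.1% and 51.4% lower, and spike-in centring 49.0%, 84.3% and 75.8%, with a median change of -0.12 at 10 h. Counts moved by over 1.5 times with every probe set fitted (5258, 7431 and 7115), with only the groups compared at 18 h (2449), without control 10 h replicate 1 (2134 at 10 h), without control 4 h replicate 2 or 3 (2138 and 2207 at 4 h), and without control 18 h replicate 2 (2868 at 18 h). Where a cause is not shown by fewer arrays or more probe sets, the cause was not tested. Fold changes of dim probe sets (Ifna4, and Ifnb1 in control cells) move with the background subtracted, and no group of 2 arrays can show its own spread well.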
